A study of Mus musculus with 16 samples.

Results

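The solute carriers described here are the genes whose symbol begins with Slc and a family number and whose level reached a group mean of at least 10 CPM (counts scaled to a common library size, from the authors' TMM-scaled table) in 1 or more of 4 tissue groups. The table of 23380 genes held 324 such symbols. Of these, 143 stayed under the floor and 7 (Slc2a1, Slc2a3, Slc16a1, Slc16a3, Slc4a1, Slc18a3 and Slc5a7) were left out by name, which leaves 174 genes. The genes were thus selected on the level described below, so their being expressed is a condition of the choice and not a result. In all 4 groups 125 of the 174 were at the floor, and 49 were not: 18 reached it in 1 group, 16 in 2 and 15 in 3. Just outside the floor, by highest group mean, lay Slc43a2 at 9.85 CPM, Slc38a6 at 9.11, Slc16a6 at 8.98, Slc44a3 at 8.79 and Slc6a9 at 8.50. Just inside it lay Slc16a12 at 10.1 CPM, Slc41a3 at 10.6, Slc39a1 at 10.8, Slc29a2 at 10.9 and Slc9a5 at 11.1.

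The groups were the epithelium (PE) and mesenchyme (PM) of the parotid gland and the epithelium (SE) and mesenchyme (SM) of the submandibular gland, from wild-type ICR mouse embryos at embryonic day (E) 13, with 4 libraries each that the labels call independent biological replicates. All 4 groups share strain, genotype, age and kit. In the column names the parotid and submandibular libraries carry separate runs of sample numbers. A gland difference cannot be told apart from a difference between those runs. The labels say that glands were harvested at E13, and the design text also speaks of 6 days in culture, so whether the RNA was taken before or after culture is not settled by the labels. Gene counts ran from 16912258 to 27646844 per library.

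Solute carriers are membrane proteins that move small molecules and ions across the plasma membrane or the membranes of organelles, by facilitated diffusion, by exchange or by coupling to an ion gradient. They are numbered by sequence family, and a family usually, though not always, shares a kind of cargo; the classes below follow the family. In adult salivary glands some of them drive secretion, such as the basolateral sodium, potassium and chloride cotransporter Slc12a2, while in growing tissue others bring in amino acids and metals for biosynthesis.

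The labelled tissues were checked first against marker genes. The summed level of 10 epithelial markers (Epcam, Cdh1, Krt8 and others) ran from 2754 to 3247 CPM per library in parotid epithelium and from 2626 to 3084 in submandibular epithelium, against 14.7 to 46 and 38.5 to 63.8 in the mesenchymes. The mesenchymal markers summed to 20250 to 28760 CPM in parotid and 13780 to 15820 in submandibular mesenchyme, and to at most 412 CPM in any epithelial library. Both mesenchymes also held other cell types, and these are set beside the results that they move with: endothelial markers summed to 550.2 to 825 and 623 to 866 CPM, neuronal markers to 372 to 753 and 47.1 to 235, and skeletal muscle markers to 337 to 1271 and 156 to 324 in parotid and submandibular mesenchyme. The part of these cells in any difference of a carrier was not tested. In bulk RNA, fewer cells of a type and less RNA per cell cannot be told apart.

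The summed level of these genes differed little between tissues. Summed over the 174 genes, the level lay between 9042 and 10904 CPM in all 16 libraries. Under that steady total, single carriers differed widely: the 4 group means lay more than 4-fold apart for 36 genes and within 1.5-fold for 39. The highest group mean was in parotid epithelium for 56 genes, in parotid mesenchyme for 51, in submandibular mesenchyme for 51 and in submandibular epithelium for 16.

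The layers of each gland were tested against each other with edgeR's quasi-likelihood test, and a gene was called at a Benjamini-Hochberg adjusted p below 0.05 over 18191 genes tested. In the parotid gland 58 carriers were higher in epithelium and 69 lower, 127 of 174 in all. Among all genes tested 64.9% were called in this comparison (31.4% higher, 33.5% lower), and among the 11475 genes that pass the same floor 72.5% (38.1% higher, 34.4% lower), so the share of carriers called, 73%, was near the background. In the submandibular gland 52 were higher in epithelium and 79 lower, 131 in all or 75.3%, against 67.0% of all genes tested (33.3% higher, 33.7% lower) and 74.2% of genes at the floor (39.9% higher, 34.3% lower). A carrier that passes the floor only through the tissue where it is high has to differ between tissues. Among the 125 carriers at the floor in all 4 groups, 86 (68.8%) were called in the parotid and 87 (69.6%) in the submandibular gland, beside 67.9% and 70.2% of the 8628 genes at the floor in all 4 groups.

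The calls of both glands, which share no library, were set side by side. In both glands 41 carriers (23.6%) were higher in epithelium, beside 25.2% of all genes tested and 31.6% of genes at the floor, and 58 (33.3%) were lower, beside 25.7% and 27.1%. Opposite calls were made for 8 (4.6%), beside 1.94% and 2.37%. In the parotid gland only 20 were called (11.5%, beside 12.1% and 11.4%), in the submandibular gland only 24 (13.8%, beside 14.2% and 13.1%), and in neither 23 (13.2%, beside 20.9% and 14.4%). These shares were not tested against each other. The median log2 difference over the 174 carriers was -0.064 in the parotid and -0.187 in the submandibular gland, beside -0.004 and 0.014 over all genes tested.

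**Figure D1:**
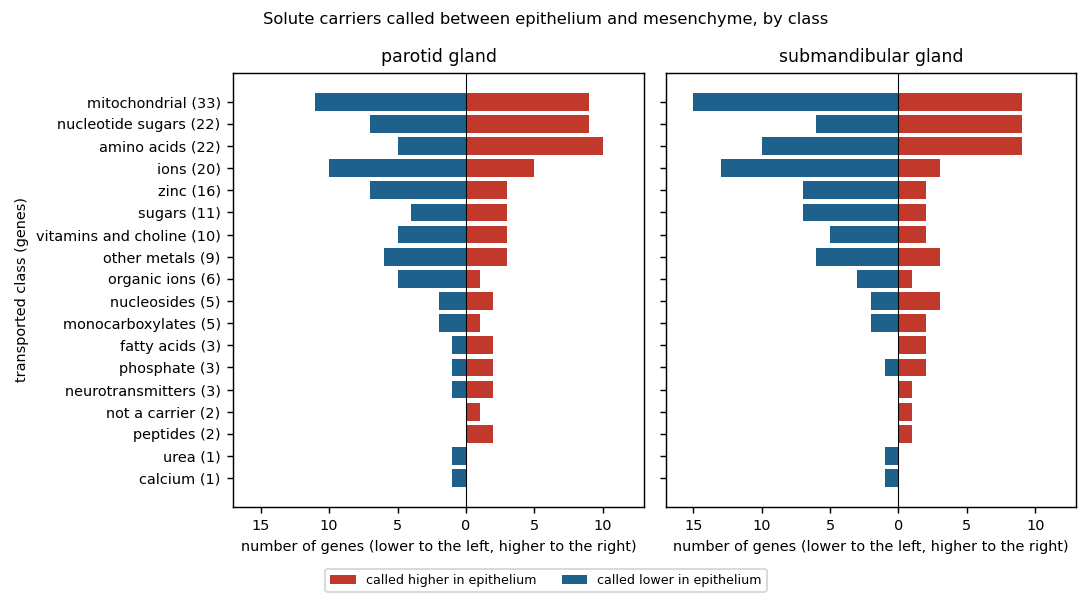
Number of solute carriers called higher (red, to the right) or lower (blue, to the left) in epithelium than in mesenchyme, for each transported class (rows, with the number of genes in the class) in the parotid (left) and submandibular gland (right). Amino acid carriers show 10 higher and 5 lower in the parotid and 9 and 10 in the submandibular gland. Ion carriers show 5 and 10 in the parotid and 3 and 13 in the submandibular gland. Of all genes tested 31.4% and 33.3% were higher in epithelium and 33.5% and 33.7% lower.

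**Figure D2:**
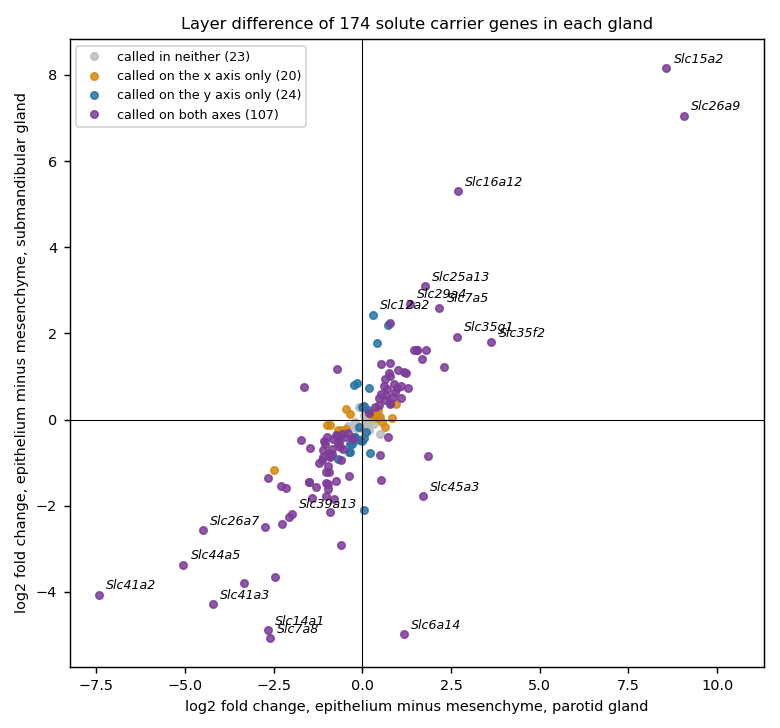
Log2 fold change of epithelium over mesenchyme for each of the 174 genes (points), parotid gland on the x axis and submandibular gland on the y axis, coloured by where the gene was called. Slc15a2 and Slc26a9 lie alone at the top right, Slc41a2, Slc44a5 and Slc26a7 at the far left, and Slc6a14 and Slc45a3 in the lower right quadrant, where the glands differ in direction.

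The largest layer differences belonged to a peptide carrier and a chloride carrier. Slc15a2 encodes PEPT2, a proton-coupled high-affinity carrier of di- and tripeptides. It stood at 462, 269, 423 and 316 CPM in the parotid and 326, 539, 251 and 331 in the submandibular epithelium. In the mesenchymes it was at 1.13, 1.58, 0.282 and 1.08 CPM in the parotid and 2.63, 0.258, 1.49 and 0.957 in the submandibular mesenchyme. Every epithelial library was far above every mesenchymal one. The log2 difference was 8.57 (SE 0.50, adjusted p = 1.23e-09) in the parotid and 8.16 (SE 0.49, adjusted p = 1.38e-09) in the submandibular gland, with no call between the 2 epithelia. The other peptide carrier, Slc15a4 of endolysosomes, varied far less, with group means from 23.3 to 29.7 CPM and a call between the parotid layers alone (0.38 ± 0.15 SE, adjusted p = 0.0326). That call was lost without parotid epithelium replicate 2 or 3 or parotid mesenchyme replicate 1 or 4 (adjusted p up to 0.0986).

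Slc26a9 is a chloride channel and transporter of airway, stomach and other epithelia. Its levels were 48.8, 89.6, 67.2 and 58.6 CPM in the parotid and 23.7, 27.3, 17.4 and 41.2 in the submandibular epithelium. In the mesenchymes they were 0.216, 0.0545, 0 and 0.234 CPM in the parotid and 0.263, 0, 0.267 and 0.338 in the submandibular mesenchyme, where 1 library of each gland was at 0. The log2 difference between layers was 9.06 (SE 0.51, adjusted p = 2.70e-10) in the parotid and 7.06 (SE 0.48, adjusted p = 2.06e-09) in the submandibular gland. Slc26a9 was also higher in parotid than in submandibular epithelium, by 1.24 (SE 0.30, adjusted p = 0.00854), and those libraries did not overlap.

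**Figure D3:**
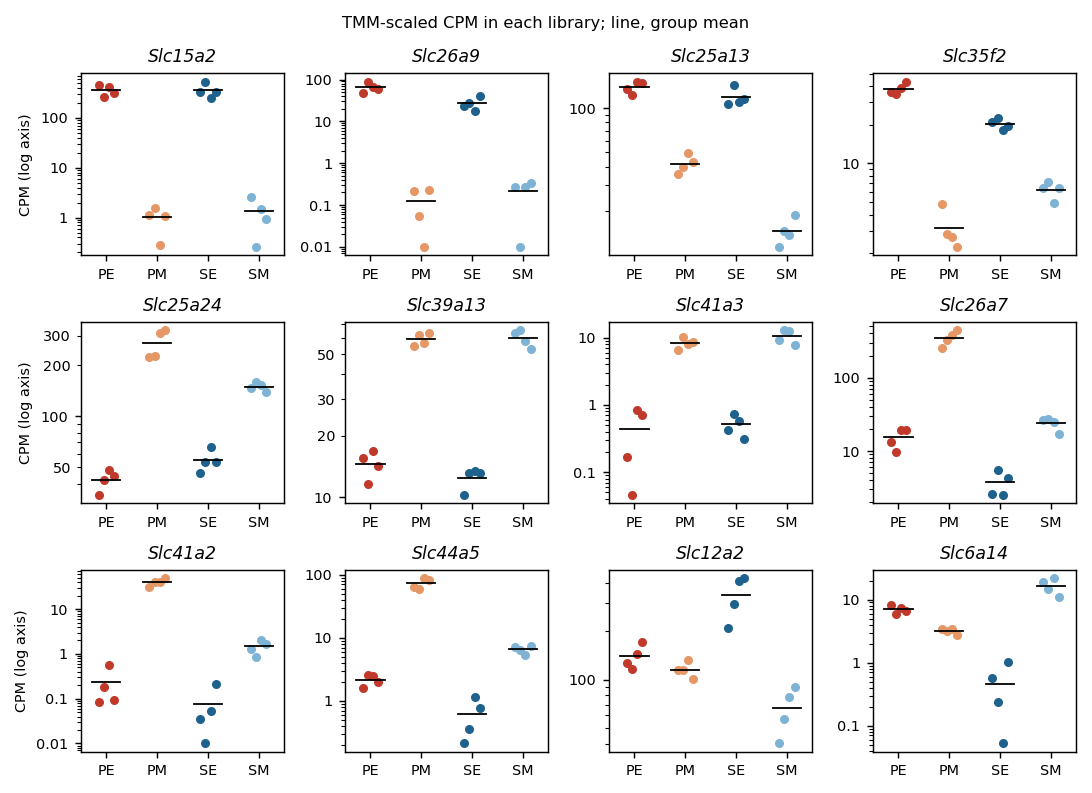
Level of 12 carriers in each library (points; TMM-scaled CPM on a log axis, values under 0.01 drawn at 0.01) in the parotid (PE, PM) and submandibular (SE, SM) epithelium and mesenchyme, with the group mean as a line. Slc15a2, Slc26a9, Slc25a13 and Slc35f2 sit higher in both epithelia, the next 6 higher in both mesenchymes, Slc12a2 highest in submandibular epithelium and Slc6a14 lowest there.

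Among the 20 ion carriers, 5 were higher and 10 lower in epithelium in the parotid gland, and 3 and 13 in the submandibular gland. Of all genes tested 31.4% were higher and 33.5% lower in the parotid, and 33.3% and 33.7% in the submandibular gland. Of genes at the floor the shares were 38.1% and 34.4%, and 39.9% and 34.3%. These shares also apply beside the layer counts of the other classes below, and no class was tested against them. The class median log2 difference was -0.47 and -0.69. Slc26a7, an anion exchanger of kidney, stomach and thyroid cells, led the mesenchymal side. It measured 251, 328, 377 and 448 CPM in the parotid and 26.4, 27, 24.8 and 16.9 in the submandibular mesenchyme. In the epithelia it measured 13.1, 9.6, 19.3 and 19.4 CPM in the parotid and 2.63, 5.59, 2.5 and 4.25 in the submandibular epithelium. The layers were apart in each gland (-4.49 ± 0.29 SE, adjusted p = 1.75e-09 in the parotid, -2.57 ± 0.29 SE, adjusted p = 8.77e-07 in the submandibular gland), and parotid mesenchyme held far more than submandibular mesenchyme, by 3.92 (SE 0.28, adjusted p = 5.55e-08).

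Slc12a2, the sodium, potassium and chloride cotransporter NKCC1, was highest in submandibular epithelium. Its libraries stood at 210.1, 295, 412 and 426 CPM there and at 40.1, 57.1, 77.4 and 90.3 in submandibular mesenchyme, a log2 difference of 2.43 (SE 0.25, adjusted p = 2.68e-07). In the parotid gland the layers overlapped, with 128, 117, 144 and 170.0 CPM in epithelium and 114, 114, 132 and 101 in mesenchyme. Between the glands Slc12a2 was lower in parotid epithelium (-1.29 ± 0.24 SE, adjusted p = 0.00123) and higher in parotid mesenchyme (0.84 ± 0.24 SE, adjusted p = 0.0116).

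The sodium bicarbonate cotransporter Slc4a4 was a mesenchymal gene here and lower in the parotid in both layers. It was at 19.8, 21.9, 20.1 and 20.2 CPM in the parotid and 59.4, 57.5, 50.2 and 39.1 in the submandibular mesenchyme, and at 3.5, 6.1, 2.55 and 4.65 CPM in the parotid and 8.62, 6.92, 10.4 and 10.1 in the submandibular epithelium. The layer difference was -2.25 (SE 0.22, adjusted p = 1.11e-07) in the parotid and -2.43 (SE 0.21, adjusted p = 2.82e-08) in the submandibular gland, and the gland difference was -1.12 (SE 0.22, adjusted p = 0.00173) in epithelium and -1.29 (SE 0.20, adjusted p = 1.15e-04) in mesenchyme. None of these 4 pairs of groups overlapped. Slc4a2, a chloride and bicarbonate exchanger found in most cells, was called in none of the 4 comparisons of a pair of groups, with means of 69.9 ± 12.7 CPM in parotid epithelium, 66.9 ± 7.45 in parotid mesenchyme, 58.1 ± 11.6 in submandibular epithelium and 54.9 ± 4.56 in submandibular mesenchyme.

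The sodium and proton exchangers did not share a pattern. Slc9a5 was at 12.1, 9.21, 8.03 and 7.25 CPM in the parotid and 8.85, 11.2, 12.9 and 11.4 in the submandibular mesenchyme, and at 1.75, 1.41, 0.945 and 1.15 CPM in the parotid and 2.14, 2.54, 0.834 and 1.79 in the submandibular epithelium, a layer difference of -2.76 (SE 0.30, adjusted p = 3.68e-07) and -2.49 (SE 0.29, adjusted p = 7.79e-07). Slc9a9, an endosomal exchanger, changed direction between glands and is described with the other such genes below. The cotransporter family members Slc12a4 and Slc12a9 were both lower in epithelium in each gland, at log2 differences of -0.55 and -1.24 in the parotid and -0.69 and -1.01 in the submandibular gland. Slc12a7, of the same family, was instead raised in parotid epithelium, with 106, 157, 145 and 134 CPM against 79.5, 71.3, 90.6 and 68.9 in parotid mesenchyme and 60.2, 76.2, 66.1 and 99.7 in submandibular epithelium (0.84 ± 0.18 SE, adjusted p = 6.39e-04, and 0.82 ± 0.18 SE, adjusted p = 0.00447).

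Slc26a2, the sulfate carrier needed for cartilage matrix, had means of 42.7 ± 5.35 CPM in parotid epithelium, 31.2 ± 5.16 in parotid mesenchyme, 42.2 ± 7.07 in submandibular epithelium and 43.2 ± 2.69 in submandibular mesenchyme. It was higher in epithelium in the parotid gland (0.48 ± 0.14 SE, adjusted p = 0.00536), and its call between the mesenchymes (-0.43 ± 0.14 SE, adjusted p = 0.0213) was lost without parotid mesenchyme replicate 2, submandibular mesenchyme replicate 2 or submandibular mesenchyme replicate 3 (adjusted p up to 0.0779).

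Partners of these carriers were taken from a list of pumps, carbonic anhydrases, chloride channels and water channels, of which 28 were tested. In epithelium 10 were higher and 11 lower in the parotid, and 14 and 11 in the submandibular gland, with median log2 differences of -0.08 and 0.49. Of all genes tested 64.9% and 67.0% were called in these comparisons. Car12, a membrane-bound carbonic anhydrase, had means of 594 ± 47.5 and 569 ± 102 CPM (SD, n = 4) in parotid and submandibular epithelium, and 7.95 ± 5.32 and 19.8 ± 9.04 in the mesenchymes. Aqp3, a water and glycerol channel, and the chloride channel Cftr stood out in submandibular epithelium, at 36.2 ± 14.3 and 24.3 ± 9.16 CPM, against 0.989 ± 0.326 and 1.85 ± 0.930 in parotid epithelium. Emb, a chaperone of monocarboxylate carriers, was at 214 ± 81.4 CPM in submandibular and 30.6 ± 5.4 in parotid epithelium. Aqp5, the water channel of mature acinar cells, had a mean of at most 0.558 CPM in any group.

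Of the 22 amino acid carriers, in the parotid gland 10 were higher and 5 lower in epithelium (class median 0.22), and in the submandibular gland 9 were higher and 10 lower (-0.36). Summed over the class, the level was 2072 ± 204 CPM in parotid epithelium, 1404 ± 12.8 in parotid mesenchyme, 1749 ± 162 in submandibular epithelium and 1688 ± 57.2 in submandibular mesenchyme (mean ± SD, n = 4).

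Slc7a5 (LAT1), which exchanges large neutral amino acids, and Slc3a2 (CD98 heavy chain), the partner that brings it to the cell surface, were both higher in epithelium. Slc7a5 measured 154, 283, 262 and 303 CPM in the parotid and 117, 157, 148 and 222 in the submandibular epithelium. In the mesenchymes it measured 70.2, 56.5, 46.2 and 54.3 CPM in the parotid and 19.7, 22, 31.9 and 40 in the submandibular mesenchyme. The layers did not overlap in either gland, and the differences were 2.17 (SE 0.26, adjusted p = 2.17e-06) and 2.60 (SE 0.27, adjusted p = 3.57e-07). Slc3a2 measured 178, 207, 239.5 and 245 CPM in the parotid and 142, 167, 128 and 192 in the submandibular epithelium, and 90.9, 97.1, 86.9 and 88.2 CPM in the parotid and 111, 96.9, 102 and 93 in the submandibular mesenchyme. Its layer difference was smaller, 1.29 (SE 0.12, adjusted p = 9.43e-08) in the parotid and 0.73 (SE 0.12, adjusted p = 5.10e-05) in the submandibular gland, again with no overlap.

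Further carriers of glutamine or cationic amino acids were also higher in epithelium. Slc38a1, a sodium-coupled glutamine carrier, stood at 178, 219, 157 and 170.1 CPM in the parotid and 143, 145, 168 and 194 in the submandibular epithelium, and at 84.8, 58, 55 and 56.8 CPM in the parotid and 49.1, 45.7, 59.4 and 73.2 in the submandibular mesenchyme. Its differences of 1.54 (SE 0.17, adjusted p = 5.83e-07) and 1.61 (SE 0.17, adjusted p = 3.40e-07) were alike in size. Slc7a1, the main cationic amino acid carrier, was higher in epithelium by 1.18 (SE 0.19, adjusted p = 3.44e-05) and 1.11 (SE 0.19, adjusted p = 7.16e-05), and Slc38a4 by 0.51 (SE 0.13, adjusted p = 0.00268) and 1.28 (SE 0.13, adjusted p = 2.42e-07). Slc1a5, the glutamine exchanger ASCT2, was higher in parotid epithelium by 0.86 (SE 0.17, adjusted p = 2.43e-04); in the submandibular gland its difference of 0.52 was called in the full data (adjusted p = 0.0119) but not without submandibular epithelium replicate 4 (adjusted p = 0.0588).

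Other amino acid carriers were higher in mesenchyme. Slc7a8 (LAT2), the second large-neutral exchanger that pairs with Slc3a2, measured 8.38, 9.48, 7.54 and 11.5 CPM in the parotid and 33, 32.9, 34.8 and 31.7 in the submandibular mesenchyme. In the epithelia it measured 1.08, 1.18, 1.46 and 2.2 CPM in the parotid and 0.841, 1.17, 1.2 and 0.527 in the submandibular epithelium. The mesenchymal libraries were all above the epithelial ones, with log2 differences of -2.61 (SE 0.24, adjusted p = 5.65e-08) and -5.07 (SE 0.26, adjusted p = 4.95e-11) from mesenchyme to epithelium, and submandibular mesenchyme was above parotid mesenchyme (parotid minus submandibular -1.80 ± 0.22 SE, adjusted p = 7.10e-06). Slc36a4 (log2 differences -0.93 and -1.21) and Slc43a1 (LAT3, -1.10 and -0.87) were lower in epithelium in both glands. Slc38a3, a glutamine carrier of liver, kidney and astrocytes, was highest in submandibular mesenchyme. It stood at 5.89, 5.78, 6.01 and 5.1 CPM in the parotid and 12.8, 16.7, 18.4 and 20.4 in the submandibular mesenchyme, and at 8.32, 4.64, 4.49 and 5.51 CPM in the parotid and 4.06, 3.29, 5.06 and 2.56 in the submandibular epithelium, with -1.55 (SE 0.23, adjusted p = 6.18e-05) between the mesenchymes and -2.11 (SE 0.23, adjusted p = 5.04e-07) between the submandibular layers.

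Slc38a2 (SNAT2), the glutamine carrier that cells raise when amino acids run short, was the most abundant of the class by CPM and crossed over between glands. It measured 437, 597, 493 and 518 CPM in the parotid and 358, 386, 432 and 421 in the submandibular epithelium, and 416, 355, 368 and 336 CPM in the parotid and 772, 821, 636 and 762 in the submandibular mesenchyme. Epithelium was above mesenchyme in the parotid (0.50 ± 0.11 SE, adjusted p = 4.73e-04) and below it in the submandibular gland (-0.82 ± 0.11 SE, adjusted p = 2.95e-06). The interaction, that is, the gland difference in epithelium minus that in mesenchyme, was 1.32 (SE 0.15, adjusted p = 8.06e-06).

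**Figure D4:**
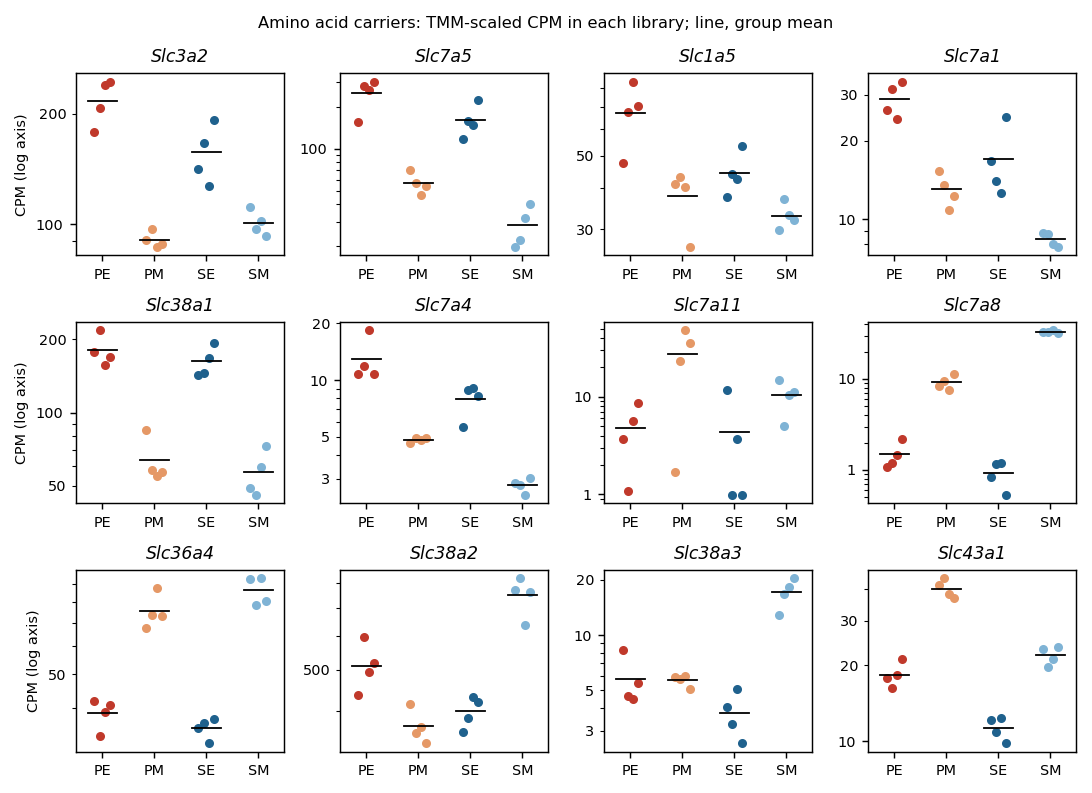
Level of 12 amino acid carriers in each library (points; TMM-scaled CPM on a log axis) by group, with the group mean as a line; PE, PM, SE and SM as above. Slc3a2, Slc7a5, Slc7a1, Slc38a1 and Slc7a4 lie higher in both epithelia, Slc7a8, Slc36a4 and Slc43a1 lower, and Slc7a11 spreads widely within groups.

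Many of these genes are known targets of the factor ATF4 in cells short of amino acids, through a sequence element whose core is TGATGNAA. That core was searched on both strands in RefSeq promoter windows (build GRCm38.p6, 250 bases before to 50 after the start; 135 of the 174 carriers had an entry). It lay in 5 carriers (3.70%), in 4.51% of all 27025 genes with an entry and in 2.66% of the 9019 of them at the floor of 10 CPM. Of 16 amino acid carriers with an entry 2 held it, Slc7a11 and Slc1a4, and of 22 genes on a list of ATF4 targets in amino acid metabolism 8 did. The motif was chosen after the values were seen. A match is a description and not a bound site, and windows without a match say nothing of the factor. The 2 windows are shown because they put the letters of the element beside the levels of the carriers that hold it, with matches in capitals. Both genes lie on the minus strand and the windows are written in the direction of transcription, Slc7a11 at chr3:50443564-50443863 and Slc1a4 at chr11:20332664-20332963.
Slc7a11: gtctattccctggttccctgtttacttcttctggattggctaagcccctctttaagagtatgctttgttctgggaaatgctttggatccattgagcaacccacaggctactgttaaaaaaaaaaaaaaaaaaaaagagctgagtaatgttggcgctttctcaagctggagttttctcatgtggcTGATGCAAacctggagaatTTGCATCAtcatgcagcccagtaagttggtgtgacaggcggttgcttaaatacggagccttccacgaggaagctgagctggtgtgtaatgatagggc
Slc1a4: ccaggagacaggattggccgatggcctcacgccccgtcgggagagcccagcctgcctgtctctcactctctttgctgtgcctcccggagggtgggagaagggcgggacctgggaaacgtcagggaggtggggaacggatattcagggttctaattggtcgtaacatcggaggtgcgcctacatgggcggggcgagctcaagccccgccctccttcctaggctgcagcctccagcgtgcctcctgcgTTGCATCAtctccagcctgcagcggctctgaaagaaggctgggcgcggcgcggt

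Slc7a11 (xCT), which imports cystine in exchange for glutamate, holds the core once on each strand, the first match beginning 66 bases before the start. Its level was 3.66, 1.09, 5.67 and 8.62 CPM in the parotid and 11.8, 0.978, 3.65 and 0.983 in the submandibular epithelium. In the mesenchymes it was 1.68, 23.5, 48.7 and 35.3 CPM in the parotid and 14.9, 5.06, 10.4 and 11.3 in the submandibular mesenchyme. Within parotid mesenchyme it ran from 1.68 to 48.7 CPM, and the call in the parotid gland (-2.50 ± 0.92 SE, adjusted p = 0.0269) was lost without any 1 of 4 libraries (parotid epithelium replicates 1 and 2, parotid mesenchyme replicates 3 and 4; adjusted p up to 0.0733). Slc1a4 (ASCT1), a carrier of small neutral amino acids, holds the core 4 bases before the start. Its group means of 32.2 ± 8.21 CPM in parotid epithelium, 36.6 ± 5.26 in parotid mesenchyme, 34.2 ± 4.63 in submandibular epithelium and 20.2 ± 4.86 in submandibular mesenchyme gave no call between the parotid layers, and submandibular mesenchyme was the lowest of the 4 (0.85 ± 0.19 SE, adjusted p = 9.43e-04 between the layers there).

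Of the listed amino acid response genes 22 were tested. In epithelium 14 were higher and 5 lower in the parotid, and 14 and 3 in the submandibular gland, with medians of 0.47 and 0.77. Of all genes tested 31.4% and 33.3% were higher and 33.5% and 33.7% lower. Of the enzymes of serine synthesis, Psat1 stood at 291 ± 23.9 and 250.5 ± 57.3 CPM in the epithelia and 68.5 ± 19.6 and 28.5 ± 6.15 in the mesenchymes, and Phgdh at 323 ± 17.8, 360.5 ± 34.2, 82 ± 18.9 and 85.8 ± 7.62 in the same order. Atf4 itself was lower in parotid epithelium (-0.46, adjusted p = 8.19e-04), and the stress gene Ddit3 was at 7.87 ± 1.92 and 10.2 ± 1.94 CPM in the epithelia and 15.6 ± 3.01 and 20.1 ± 2.21 in the mesenchymes.

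The 33 mitochondrial carriers of family Slc25 formed the largest class and summed to 2969 ± 147, 2819 ± 83.1, 2816 ± 83.6 and 2641 ± 108 CPM in the order PE, PM, SE and SM. In epithelium 9 were higher and 11 lower in the parotid, and 9 and 15 in the submandibular gland. Per kilobase of exon, the ADP and ATP exchangers Slc25a4 and Slc25a5 were the most abundant of the 174 genes in every group. Slc25a4 had 265, 264, 255 and 217 CPM per kb and Slc25a5 had 238, 141, 252 and 108 in the order above. Slc25a5 was higher in epithelium by 0.78 (SE 0.11, adjusted p = 8.26e-06) and 1.32 (SE 0.11, adjusted p = 1.64e-08), while Slc25a4 was called in the submandibular gland and not in the parotid (0.32 ± 0.09 SE, adjusted p = 0.00301), with overlapping libraries. Both genes have processed copies in the genome, and how reads with several matches were counted is not given in these sources.

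The pair of aspartate and glutamate exchangers split between the layers. Slc25a13 (citrin), the form of liver and other epithelia, was at 135, 122, 152 and 149 CPM in the parotid and 107, 142, 110.1 and 115 in the submandibular epithelium. In the mesenchymes it was at 35.6, 39.8, 49.2 and 43.1 CPM in the parotid and 11.4, 14.6, 13.8 and 18.9 in the submandibular mesenchyme. Slc25a12 (aralar), the form of brain and muscle, was at 49.4, 39.5, 41.5 and 39 CPM in the parotid and 104, 124, 96.1 and 102 in the submandibular mesenchyme, and at 20.3, 26.9, 19.6 and 21.1 CPM in the parotid and 24.5, 21.9, 22.2 and 22.2 in the submandibular epithelium. Slc25a13 was higher in epithelium by 1.76 (SE 0.14, adjusted p = 8.72e-09) and 3.10 (SE 0.15, adjusted p = 2.12e-11) and Slc25a12 was lower, at -0.92 (SE 0.12, adjusted p = 2.79e-06) and -2.15 (SE 0.12, adjusted p = 1.21e-10), all without overlap. In mesenchyme the glands also differed, with more Slc25a13 in the parotid (1.55 ± 0.14 SE, adjusted p = 3.89e-07) and more Slc25a12 in the submandibular gland (-1.30 ± 0.12 SE, adjusted p = 3.11e-07). Neuronal and skeletal muscle marker sums, given above, were higher in parotid mesenchyme, the mesenchyme with less Slc25a12; endothelial sums overlapped between the mesenchymes. Their part was not tested.

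Slc25a24, a calcium-regulated carrier of ATP-magnesium and phosphate, was higher in mesenchyme in both glands. It measured 223, 227, 311 and 325 CPM in the parotid and 146, 161, 154 and 138 in the submandibular mesenchyme, and 34.1, 41.7, 48.4 and 44.3 CPM in the parotid and 46.1, 54, 66.2 and 53.8 in the submandibular epithelium. The layers differed by -2.66 (SE 0.14, adjusted p = 7.96e-11) and -1.36 (SE 0.14, adjusted p = 1.43e-07). On the epithelial side stood Slc25a33, a pyrimidine nucleotide carrier (1.53 and 1.61), Slc25a39, which brings glutathione into mitochondria (0.98 and 0.74), Slc25a10, a dicarboxylate carrier (0.91 and 0.65), and Slc25a15, the ornithine carrier (0.69 and 0.72), each called in both glands. The phosphate carrier Slc25a3 was called nowhere, with means of 269 ± 27.2 CPM in parotid epithelium, 261 ± 7.72 in parotid mesenchyme, 271 ± 27.5 in submandibular epithelium and 281 ± 19.1 in submandibular mesenchyme. The citrate carrier Slc25a1 did not differ between layers beyond the threshold and was higher in parotid than in submandibular mesenchyme (0.73 ± 0.14 SE, adjusted p = 4.71e-04).

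Family Slc35 and Slc33a1 carry nucleotide sugars, acetyl-CoA or unknown cargo, mostly into the Golgi apparatus. Of these 22 genes 9 were higher and 7 lower in epithelium in the parotid, and 9 and 6 in the submandibular gland, with medians of -0.01 and 0.14. The CMP-sialic acid carrier Slc35a1 was at 77.3, 81.7, 84.9 and 80 CPM in the parotid and 106, 102, 88.5 and 79.2 in the submandibular mesenchyme and at 32.4, 28.8, 27.4 and 39.6 CPM in the parotid and 31.5, 29.6, 29.3 and 30 in the submandibular epithelium, so the layers did not overlap (-1.31 ± 0.11 SE, adjusted p = 2.44e-08, and -1.55 ± 0.11 SE, adjusted p = 2.80e-09). Slc35d1, which carries UDP-glucuronic acid, was the reverse (1.00 ± 0.10 SE, adjusted p = 1.95e-07, and 1.15 ± 0.10 SE, adjusted p = 3.14e-08). The UDP-galactose carrier Slc35a2 was lower in epithelium (log2 difference -0.50 and -0.41), as was Slc35b4 (-0.95 and -0.79).

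The widest ranges in the family came from members whose cargo is less well known. Slc35f2 stood at 36.2, 34.5, 38.8 and 43.4 CPM in the parotid and 21, 22.7, 18.3 and 19.5 in the submandibular epithelium, and at 4.81, 2.83, 2.7 and 2.25 CPM in the parotid and 6.48, 7.17, 4.91 and 6.47 in the submandibular mesenchyme. It was higher in epithelium in both glands, by 3.63 (SE 0.20, adjusted p = 1.12e-10) and 1.79 (SE 0.19, adjusted p = 2.04e-07), with the larger difference in the parotid (interaction 1.84 ± 0.26 SE, adjusted p = 8.72e-05). Slc35g1 was also epithelial (2.66 ± 0.20 SE, adjusted p = 5.15e-09, and 1.93 ± 0.20 SE, adjusted p = 1.67e-07). Slc35f5 was mesenchymal, with means of 18.6 ± 2.37 CPM in parotid epithelium, 92.8 ± 7.75 in parotid mesenchyme, 33.4 ± 1.88 in submandibular epithelium and 104 ± 9.59 in submandibular mesenchyme. Slc33a1, the acetyl-CoA carrier, was called in none of the 4 comparisons.

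Among 11 sugar carriers 3 were higher and 4 lower in epithelium in the parotid, and 2 and 7 in the submandibular gland. The widely known glucose carriers Slc2a1 and Slc2a3 are not part of the set. Slc2a13, a proton-coupled myo-inositol carrier, was mesenchymal and higher in the parotid in both layers. Its levels were 25.5, 25.8, 28.1 and 32.1 CPM in the parotid and 9.06, 7.48, 9.56 and 6.53 in the submandibular mesenchyme, and 7.28, 8.78, 5.24 and 4.65 CPM in the parotid and 1.72, 1.49, 1.25 and 1.86 in the submandibular epithelium. None of the 4 pairs of groups overlapped, with log2 differences of -2.07 (SE 0.21, adjusted p = 1.36e-07) and -2.26 (SE 0.22, adjusted p = 9.53e-08) between layers and 2.01 (SE 0.22, adjusted p = 8.80e-06) and 1.81 (SE 0.20, adjusted p = 3.36e-06) between glands.

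Slc5a3, the sodium-coupled myo-inositol carrier, had its higher means in epithelium, 85 against 50.5 CPM in the parotid and 59.7 against 31.6 in the submandibular gland, where the layers differed by 1.01 (SE 0.30, adjusted p = 0.00710). Slc2a12 was a submandibular epithelial gene, with 3.54, 3.6, 3.35 and 2.92 CPM in the parotid and 10.2, 11.3, 18 and 5.9 in the submandibular epithelium and 2.43, 3.22, 1.65 and 1.03 CPM in the parotid and 2.26, 2.84, 2.24 and 3.21 in the submandibular mesenchyme. The gland difference in epithelium was -1.77 (SE 0.32, adjusted p = 0.00105). Slc2a10, a facilitative carrier whose human loss affects arteries, was mesenchymal (-2.16 ± 0.16 SE, adjusted p = 3.23e-09, and -1.60 ± 0.16 SE, adjusted p = 1.07e-07), as was the sugar efflux carrier Slc50a1 (-0.81 ± 0.13 SE, adjusted p = 3.13e-05, and -1.83 ± 0.13 SE, adjusted p = 2.50e-09).

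The 16 zinc carriers comprise exporters and organelle loaders of family Slc30 and importers of family Slc39. In epithelium 3 were higher and 7 lower in the parotid, and 2 and 7 in the submandibular gland. The count of 7 fell to 4 in the parotid without either parotid epithelium replicate 4 or replicate 1 of parotid mesenchyme, and to 4 in the submandibular gland without submandibular mesenchyme replicate 3. The importers Slc39a6 and Slc39a10, close relatives that work as a complex, were opposed. Slc39a10 stood at 313, 247, 229.6 and 255 CPM in the parotid and 338, 342, 378 and 275 in the submandibular epithelium, and at 158, 159.5, 168 and 151 CPM in the parotid and 177, 151, 177 and 159 in the submandibular mesenchyme. Slc39a6 stood at 97.6, 114, 119.8 and 112 CPM in the parotid and 77.9, 92, 88.8 and 94.9 in the submandibular epithelium, and at 239.8, 225, 251 and 263 CPM in the parotid and 151, 152, 144 and 171 in the submandibular mesenchyme. Slc39a10 was therefore higher in epithelium (0.74 ± 0.10 SE, adjusted p = 6.89e-06, and 1.09 ± 0.10 SE, adjusted p = 6.86e-08) and Slc39a6 lower (-1.12 ± 0.09 SE, adjusted p = 6.01e-09, and -0.71 ± 0.09 SE, adjusted p = 1.11e-06).

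Slc39a13, a Golgi zinc carrier needed by connective tissue cells, was the clearest mesenchymal zinc gene. It measured 54.6, 62.2, 56.8 and 63.3 CPM in the parotid and 63, 65.7, 58.2 and 53.2 in the submandibular mesenchyme, and 15.6, 11.6, 16.9 and 14.2 CPM in the parotid and 10.2, 13.1, 13.4 and 13.1 in the submandibular epithelium, with layer differences of -2.0 (SE 0.12, adjusted p = 3.62e-10) and -2.18 (SE 0.12, adjusted p = 1.31e-10). Slc39a8, a manganese and zinc importer, was highest in parotid epithelium, with 27.9, 26.1, 24 and 30.1 CPM against 9.57, 10.8, 12.2 and 8.85 in submandibular epithelium (1.36 ± 0.16 SE, adjusted p = 2.54e-05). The zinc exporter Slc30a1, which cells raise with zinc, was lower in parotid than in submandibular epithelium (-0.69 ± 0.14 SE, adjusted p = 0.00214). Slc30a9 was called in none of the 4 comparisons, with means of 117 ± 8.23 CPM in parotid epithelium, 115 ± 9.69 in parotid mesenchyme, 114 ± 11.8 in submandibular epithelium and 112 ± 4.03 in submandibular mesenchyme.

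Iron, copper, magnesium and heme carriers made up 9 genes, of which 3 were higher and 6 lower in epithelium in each gland. Slc40a1 (ferroportin), the iron exporter, was at 4.66, 8.1, 10.3 and 7.14 CPM in the parotid and 29.8, 32.1, 35 and 25.3 in the submandibular epithelium. In the mesenchymes it was at 31.2, 23.7, 23.4 and 24 CPM in the parotid and 49.7, 41.5, 50.6 and 39.6 in the submandibular mesenchyme. Parotid epithelium was below the other 3 groups in every library, with log2 differences of -2.04 (SE 0.19, adjusted p = 1.48e-06) against submandibular epithelium and -1.74 (SE 0.19, adjusted p = 3.29e-07) against parotid mesenchyme. Macrophages are known for this gene. Their markers summed to 19.6 to 29.1 CPM in parotid and 0.806 to 10.1 in submandibular epithelium. Between the layers all 10 macrophage and leukocyte markers were lower in epithelium in each gland, as Slc40a1 was. In the submandibular gland the log2 difference of Slc40a1 was small, -0.48 (adjusted p = 0.0224). That call was lost without submandibular epithelium replicate 4 or submandibular mesenchyme replicate 1 or 3 (adjusted p up to 0.0641). Erythroid markers summed to 339 to 725 CPM in parotid and 403 to 1128 in submandibular epithelium. The part of either cell type was not tested.

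The iron importer Slc11a2 was higher in epithelium (0.68 ± 0.10 SE, adjusted p = 1.02e-05, and 0.57 ± 0.10 SE, adjusted p = 6.46e-05), and so was the heme carrier Slc48a1, with 48, 51.7, 50.6 and 51.3 CPM in submandibular epithelium and 7.69, 11.6, 11.4 and 14.6 in submandibular mesenchyme (2.25 ± 0.14 SE, adjusted p = 5.38e-10; in the parotid 0.79 ± 0.14 SE, adjusted p = 6.44e-05). The copper importer Slc31a1 was slightly higher in epithelium, with means of 124 ± 7.36 CPM in parotid epithelium, 111 ± 3.48 in parotid mesenchyme, 128 ± 8.26 in submandibular epithelium and 122 ± 3.85 in submandibular mesenchyme and differences of 0.19 (SE 0.07, adjusted p = 0.0231) and 0.16 (SE 0.07, adjusted p = 0.0476). Neither call held with every library left out in turn: the parotid one was lost without parotid mesenchyme replicate 3 or 4 (adjusted p up to 0.0897) and the submandibular one without any of 13 libraries (adjusted p up to 0.154).

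All 3 members of the magnesium carrier family Slc41 were lower in epithelium in both glands. Slc41a3 was at 6.54, 10.4, 7.95 and 8.66 CPM in the parotid and 9.21, 13.1, 12.5 and 7.71 in the submandibular mesenchyme, and at 0.166, 0.0455, 0.850 and 0.719 CPM in the parotid and 0.420, 0.743, 0.573 and 0.316 in the submandibular epithelium, a difference of -4.22 (SE 0.47, adjusted p = 5.89e-07) and -4.28 (SE 0.46, adjusted p = 3.53e-07). Slc41a2 belonged to parotid mesenchyme, with 31.6, 41.6, 40.9 and 49.5 CPM there and 1.32, 0.877, 2.08 and 1.69 in submandibular mesenchyme (4.81 ± 0.39 SE, adjusted p = 9.75e-08). The epithelia held at most 0.567 CPM, with 0.0832, 0.182, 0.567 and 0.0958 CPM in the parotid and 0.0350, 0, 0.0521 and 0.211 in the submandibular epithelium. Its layer difference was -7.42 (SE 0.47, adjusted p = 6.13e-10) in the parotid (-8.31 without parotid epithelium replicate 3, the highest epithelial library) and -4.06 (SE 0.58, adjusted p = 8.92e-06) in the submandibular gland (-5.43 without submandibular epithelium replicate 4). Slc41a1 differed by -0.91 and -0.87, called in both glands.

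Of 10 vitamin and choline carriers 3 were higher and 5 lower in epithelium in the parotid, and 2 and 5 in the submandibular gland. Slc44a5, a choline carrier-like protein, had the widest range of the class. It stood at 63.6, 59, 88.3 and 81.5 CPM in the parotid and 7.21, 6.5, 5.34 and 7.26 in the submandibular mesenchyme, and at 1.58, 2.55, 2.5 and 2.01 CPM in the parotid and 0.210, 0.352, 1.15 and 0.772 in the submandibular epithelium. Parotid mesenchyme exceeded submandibular mesenchyme by 3.51 (SE 0.27, adjusted p = 5.07e-08) and the layers differed by -5.05 (SE 0.29, adjusted p = 2.03e-10) and -3.37 (SE 0.32, adjusted p = 6.93e-08). Its relative Slc44a1, the general choline carrier, was epithelial (0.65 ± 0.08 SE, adjusted p = 1.34e-06, and 0.94 ± 0.08 SE, adjusted p = 1.40e-08), and Slc44a2 mesenchymal (-1.04 ± 0.14 SE, adjusted p = 3.66e-06, and -0.56 ± 0.14 SE, adjusted p = 0.00147). The thiamine carrier Slc19a2 was lower in epithelium (-1.49 and -0.66), whereas the folate carrier Slc19a1 was highest in parotid epithelium, at 38.6, 48.1, 52.5 and 52.9 CPM against 26.5, 31.4, 32.4 and 37.1 in submandibular epithelium (0.57 ± 0.12 SE, adjusted p = 0.00312). The proton-coupled folate carrier Slc46a1 was called in none of the 4 comparisons.

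Monocarboxylate family members, without the lactate carriers left out by name, numbered 5. Slc16a4 was highest in submandibular mesenchyme, at 15.4, 15.2, 16.6 and 17.3 CPM, with every other library at or below 4.32 CPM (-2.22 ± 0.20 SE, adjusted p = 2.89e-07 between the mesenchymes). Slc16a12, a creatine carrier, was epithelial (2.69 ± 0.40 SE, adjusted p = 1.54e-05, and 5.30 ± 0.47 SE, adjusted p = 2.78e-08; the latter 6.18 without submandibular mesenchyme replicate 3).

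The 3 fatty acid carrier genes of family Slc27 included Slc27a1, which stood at 143, 211, 223 and 219.9 CPM in the parotid and 109.9, 137, 84.5 and 198 in the submandibular epithelium, and at 36.2, 43.5, 42.4 and 43.8 CPM in the parotid and 56.6, 63, 59.1 and 62.1 in the submandibular mesenchyme. It was higher in epithelium by 2.29 (SE 0.21, adjusted p = 6.31e-08) and 1.23 (SE 0.20, adjusted p = 4.49e-05), as was Slc27a3 by 1.22 (SE 0.22, adjusted p = 9.87e-05) and 1.09 (SE 0.22, adjusted p = 3.11e-04). Slc27a4 was lower in parotid epithelium (-0.68 ± 0.11 SE, adjusted p = 3.71e-05).

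Among 5 nucleoside carriers, the equilibrative carrier Slc29a1 had means of 43.8 ± 5.39 CPM in parotid epithelium, 71.3 ± 15.7 in parotid mesenchyme, 23 ± 2.44 in submandibular epithelium and 33.4 ± 4.03 in submandibular mesenchyme. It was higher in the parotid in both layers, by 0.91 (SE 0.15, adjusted p = 4.17e-04) in epithelium and 1.13 (SE 0.15, adjusted p = 1.71e-05) in mesenchyme. Slc29a4, a monoamine and adenosine carrier of the plasma membrane, shared that gland pattern (0.69 ± 0.17 SE, adjusted p = 0.010, and 2.05 ± 0.19 SE, adjusted p = 3.77e-07) but was epithelial (1.33 ± 0.17 SE, adjusted p = 3.78e-06, and 2.69 ± 0.19 SE, adjusted p = 1.85e-09). Its libraries stood at 50.7, 78.1, 75.4 and 65.6 CPM in the parotid and 32.3, 38.5, 44 and 50.2 in the submandibular epithelium, and at 25.9, 22.8, 30.6 and 30.1 CPM in the parotid and 5.48, 5.42, 7.63 and 8.67 in the submandibular mesenchyme. Slc18a2, the vesicular monoamine carrier, was likewise epithelial, with means of 36.7 ± 14.1 CPM in parotid epithelium, 11.7 ± 3.26 in parotid mesenchyme, 25.6 ± 10.6 in submandibular epithelium and 10.4 ± 2.47 in submandibular mesenchyme and differences of 1.68 (SE 0.35, adjusted p = 5.62e-04) and 1.40 (SE 0.35, adjusted p = 0.00234); the neuronal markers summed to at most 11.8 CPM in any epithelial library.

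The remaining classes were small. Of 6 organic ion carriers, Slc22a17, the lipocalin receptor, was lower in epithelium (-0.98 ± 0.11 SE, adjusted p = 5.79e-07, and -1.49 ± 0.11 SE, adjusted p = 3.56e-09), as was Slc22a15 (-1.50 ± 0.12 SE, adjusted p = 1.33e-08, and -1.45 ± 0.12 SE, adjusted p = 1.90e-08). Slc10a3, of the bile acid carrier family, spanned the narrowest range of the class, with means of 13.8 ± 1.47 CPM in parotid epithelium, 19.3 ± 1.4 in parotid mesenchyme, 17.2 ± 1.13 in submandibular epithelium and 21.2 ± 3.5 in submandibular mesenchyme, and was lower in epithelium in the parotid gland (-0.46 ± 0.13 SE, adjusted p = 0.00467). Among the 3 members of the phosphate families, the phosphate carrier Slc20a2 was higher in epithelium (1.08 ± 0.12 SE, adjusted p = 7.41e-07, and 0.79 ± 0.12 SE, adjusted p = 2.42e-05) and Slc17a5, which exports sialic acid from lysosomes, lower (-1.51 ± 0.10 SE, adjusted p = 1.30e-09, and -1.45 ± 0.10 SE, adjusted p = 1.87e-09). The phosphate carrier Slc20a1 had small differences between layers (0.34 ± 0.10 SE, adjusted p = 0.00594, and 0.28 ± 0.10 SE, adjusted p = 0.0188), and the submandibular call was lost without submandibular epithelium replicate 2 or 4 or submandibular mesenchyme replicate 4 (adjusted p up to 0.0660).

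The sodium, calcium and potassium exchanger Slc24a3 and the urea carrier Slc14a1 were each the only member of their class, and both were mesenchymal. Slc14a1 was at 33.3, 32.6, 40.1 and 38.2 CPM in the parotid and 29, 20.7, 20.1 and 12 in the submandibular mesenchyme, and at 7.16, 2, 5.53 and 7.52 CPM in the parotid and 0.491, 0.235, 1.51 and 0.491 in the submandibular epithelium. The layers differed by -2.67 (SE 0.39, adjusted p = 1.64e-05) and -4.89 (SE 0.47, adjusted p = 1.34e-07) (-5.54 without submandibular epithelium replicate 3). Red cells also carry this protein. Of 9 erythroid markers tested, 7 were lower in epithelium in the parotid and 8 in the submandibular gland, with 1 higher in each. The erythroid markers summed to 1513 to 2216 CPM in parotid and 3428 to 4313 in submandibular mesenchyme. The Slc14a1 means there were 36.1 and 20.5 CPM, with no call between the mesenchymes. The part of red cells was not tested. Slc24a3 differed between layers by -2.48 (SE 0.38, adjusted p = 2.23e-05) and -3.66 (SE 0.43, adjusted p = 8.94e-07). Slc4a1ap and Slc7a6os carry an Slc symbol through a neighbour or binding partner and are not carriers.

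Parotid and submandibular epithelium were then compared. Of the 174 carriers 44 were higher in the parotid and 17 lower, 61 in all or 35.1%. Of all genes tested 20.9% were called (11.2% higher, 9.72% lower), and of the genes at the same floor 24.8% (15% higher, 9.82% lower). Among the 125 carriers at the floor in every group 37 (29.6%) were called, beside 22.1% of such genes. The count moved with single libraries: it was 39 without parotid epithelium replicate 3, 39 without submandibular epithelium replicate 1, and 31 (22 higher, 9 lower) without the library of each epithelium with the most erythroid counts, parotid epithelium replicate 4 and submandibular epithelium replicate 1. In every one of the 16 fits that left out a library 33 of the 61 remained called, 26 higher and 7 lower.

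Markers of other cell types moved with this comparison. In parotid over submandibular epithelium 9 of 10 macrophage and leukocyte markers, 4 of 10 mesenchymal markers (Col1a2, Twist1, Twist2 and Vim) and 4 of 10 endothelial markers were called higher, and 1 endothelial marker (Tek) lower. The mesenchymal markers summed to 127 to 412 CPM per library in parotid and 39.5 to 306 in submandibular epithelium, the macrophage and leukocyte markers to 19.6 to 29.1 and 0.806 to 10.1, and the endothelial markers to 10.2 to 19.8 and 11.8 to 15.8. Of the 44 carriers higher in parotid epithelium, 13 were lower in epithelium than in mesenchyme in both glands. That held for 58 of all 174 carriers (33.3%) and for 27.1% of genes at the floor. The share among all genes called higher in parotid epithelium was not counted, so the 13 are not set against a background. Among the 13 were Slc2a13 (2.01 ± 0.22 SE, adjusted p = 8.80e-06 between the epithelia), Slc26a7 (1.99 ± 0.29 SE, adjusted p = 1.71e-04) and Slc44a5 (1.83 ± 0.34 SE, adjusted p = 0.00107). The part of other cells in these differences was not tested.

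Amino acid carriers were the largest group higher in parotid epithelium, 10 of 22 with 1 lower, a class median of 0.44 beside -0.002 over all genes tested. Of all genes tested 11.2% were higher and 9.72% lower, and of genes at the floor 15% and 9.82%. The class share was not tested against these. The count of 10 was 6 without submandibular epithelium replicate 1 and 4 without both libraries with the most erythroid counts. Those that were called with any library left out included the taurine carrier Slc6a6 (1.02 ± 0.14 SE, adjusted p = 1.14e-04), Slc7a1 (0.74 ± 0.19 SE, adjusted p = 0.0104), Slc43a1 (0.68 ± 0.11 SE, adjusted p = 4.17e-04) and Slc38a10 (0.55 ± 0.13 SE, adjusted p = 0.00829).

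**Figure D5:**
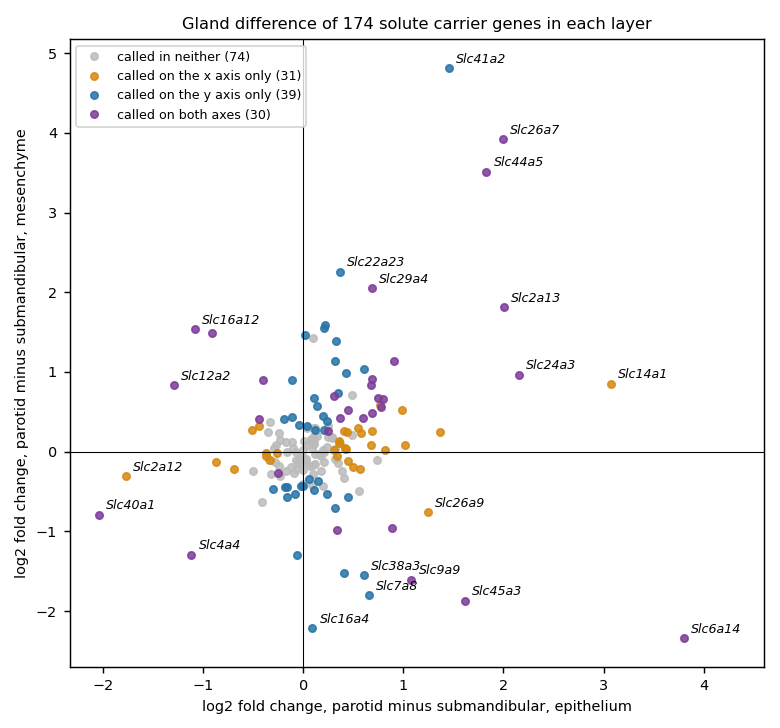
Log2 fold change of the parotid over the submandibular gland for each of the 174 genes (points), in epithelium on the x axis and in mesenchyme on the y axis, coloured by where the gene was called. Slc41a2, Slc26a7 and Slc44a5 lie at the top, and Slc6a14, Slc45a3 and Slc9a9 at the lower right, higher in parotid epithelium and lower in parotid mesenchyme.

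In mesenchyme 43 carriers were higher in the parotid and 26 lower, 69 in all or 39.7%. The share was near that of all genes tested, 34.5% (20.8% higher, 13.7% lower), and of genes at the floor, 40.9% (26.7% higher, 14.1% lower). Among the 125 at the floor in every group 41 (32.8%) were called, beside 37% of such genes. The split differed with the scaling: with upper-quartile scaling it was 31 higher and 40 lower, and that scaling moved the median of all genes by -0.11 on the log2 scale. Leaving out each library in turn, 33 of the higher and 17 of the lower calls remained in all 16 fits. Markers of other cell types moved with this comparison too: 6 of 7 skeletal muscle markers, 6 of 7 smooth muscle and pericyte markers, 5 of 8 neuronal markers and 1 of 10 macrophage and leukocyte markers were called higher in parotid mesenchyme, and 2 neuronal markers lower. The smooth muscle and pericyte markers summed to 328 to 500.2 CPM in parotid and 138 to 179.8 in submandibular mesenchyme, and the muscle and neuronal sums are given above. Their part in the carrier differences was not tested. With the values above, the differences of Slc41a2, Slc26a7, Slc44a5, Slc29a4 and Slc2a13 each exceeded that shift.

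Slc22a23, an organic ion carrier family member of unsettled cargo, was among the larger differences between the mesenchymes (2.26 ± 0.23 SE, adjusted p = 1.09e-06). It stood at 42.9, 33, 41.4 and 30.6 CPM in the parotid and 6.37, 5.67, 9.13 and 10.5 in the submandibular mesenchyme, and at 15.9, 28.2, 23.8 and 20.6 CPM in the parotid and 13.1, 16, 15.7 and 22.5 in the submandibular epithelium. Parotid mesenchyme was above its epithelium and submandibular mesenchyme below its own (-0.71 ± 0.22 SE, adjusted p = 0.00798, and 1.18 ± 0.22 SE, adjusted p = 1.75e-04). Mitochondrial carriers, the largest class, also made the largest number of calls between the mesenchymes, 11 of 33 higher in the parotid and 5 lower. Of all 174 carriers 24.7% were higher and 14.9% lower, and of genes at the floor 26.7% and 14.1%. The 5 were 3 without submandibular mesenchyme replicate 2. Slc22a5, the carnitine carrier, was lower in parotid mesenchyme, with 9.51, 10.2, 11.1 and 8.05 CPM against 35.7, 30.1, 26.1 and 22.6 in submandibular mesenchyme (-1.52 ± 0.15 SE, adjusted p = 5.92e-07).

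Over both layers, 17 carriers (9.77%) were higher in the parotid in each, beside 4.63% of all genes tested and 6.75% of genes at the floor. In each layer 3 were lower (Slc25a36, Slc40a1 and Slc4a4; 1.72%, beside 2.08% and 2.12%), and 10 were opposed (5.75%, beside 2.65% and 3.36%). In epithelium only 31 were called (17.8%, beside 11.5% and 12.6%), in mesenchyme only 39 (22.4%, beside 25.2% and 28.6%), and in neither 74 (42.5%, beside 53.9% and 46.6%). These shares were not tested against each other either.

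Whether the gland difference itself differs between layers was tested as an interaction. It was called for 49 carriers (24 positive, 25 negative), 28.2%, beside 20.9% of all genes tested (8.67% positive, 12.2% negative) and 25.9% of genes at the floor (10.5% positive, 15.4% negative). Among the 125 at the floor in every group 28 (22.4%) were called, beside 22.1% of such genes. Through all 16 fits that left out a library 38 remained, 18 positive and 20 negative.

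Slc6a14, a sodium- and chloride-coupled carrier of neutral and cationic amino acids, had the largest interaction. It stood at 8.16, 5.92, 7.42 and 6.71 CPM in the parotid and 0.561, 0.235, 0.0521 and 1.02 in the submandibular epithelium. In the mesenchymes it stood at 3.46, 3.16, 3.47 and 2.76 CPM in the parotid and 19.2, 14.7, 21.9 and 10.9 in the submandibular mesenchyme. Submandibular tissue thus held the lowest group (epithelium) and the highest (mesenchyme), with the parotid groups between them and no overlap between any 2 groups. The gland difference was 3.80 (SE 0.43, adjusted p = 1.17e-05) in epithelium and -2.34 (SE 0.37, adjusted p = 1.14e-04) in mesenchyme, and the interaction was 6.14 (SE 0.56, adjusted p = 9.81e-07). Without submandibular epithelium replicate 4 the epithelial difference was 4.52 and the interaction 6.86, both still called.

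Slc45a3, a proton-coupled sugar carrier known from prostate, had gland differences of the same signs. It stood at 12.1, 9.6, 9.21 and 10.3 CPM in the parotid and 2.24, 3.09, 3.91 and 4.07 in the submandibular epithelium. In the mesenchymes it stood at 4.65, 4.47, 2.34 and 1.54 CPM in the parotid and 13.7, 13.6, 11.7 and 9.51 in the submandibular mesenchyme. Unlike Slc6a14, its parotid epithelium overlapped submandibular mesenchyme, and its parotid mesenchyme overlapped submandibular epithelium. The gland difference was 1.61 (SE 0.29, adjusted p = 9.40e-04) in epithelium and -1.87 (SE 0.30, adjusted p = 1.12e-04) in mesenchyme (interaction 3.48 ± 0.41 SE, adjusted p = 1.39e-05). Of its exon bases 13.5% overlap another annotated gene on the same strand. Slc9a9 was the third, at 20, 14.3, 15.4 and 14.1 CPM in the parotid and 6.8, 9.62, 7.71 and 5.62 in the submandibular epithelium, and at 5.13, 4.85, 3.83 and 4.26 CPM in the parotid and 15.6, 16, 9.77 and 15 in the submandibular mesenchyme. It was higher in parotid epithelium (1.08 ± 0.20 SE, adjusted p = 0.00103) and lower in parotid mesenchyme (-1.61 ± 0.20 SE, adjusted p = 1.22e-05), an interaction of 2.69 (SE 0.28, adjusted p = 3.95e-06). In each of these 3 genes the sign of the layer difference also turned between glands.

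On the negative side Slc35f1 stood at 4.58, 4.78, 3.69 and 4.94 CPM in the parotid and 7.6, 5.91, 8.29 and 11.6 in the submandibular epithelium, and at 13.7, 19.4, 14.4 and 9.97 CPM in the parotid and 4.05, 2.84, 7.85 and 6.31 in the submandibular mesenchyme, with parotid mesenchyme highest (interaction -2.40 ± 0.41 SE, adjusted p = 4.78e-04). Slc16a12 stood at 6.62, 3.78, 2.6 and 6.37 CPM in the parotid and 12.7, 9.47, 9.8 and 8.53 in the submandibular epithelium, and at 0.757, 0.599, 0.888 and 0.795 CPM in the parotid and 0.0527, 0.258, 0.641 and 0.113 in the submandibular mesenchyme (interaction -2.62 ± 0.61 SE, adjusted p = 0.00550; -3.50 without submandibular mesenchyme replicate 3). Slc41a2 had an interaction of -3.36 (SE 1.03, adjusted p = 0.0270), which rested on epithelial libraries with few counts: it was -1.99 and not called without submandibular epithelium replicate 4 (adjusted p = 0.450), and -4.25 without parotid epithelium replicate 3. Slc12a2, with its epithelial level higher in the submandibular and its mesenchymal level higher in the parotid gland, had an interaction of -2.13 (SE 0.33, adjusted p = 2.82e-04).

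In none of the 4 comparisons of a pair of groups were 16 carriers called: Slc16a7, Slc25a28, Slc25a3, Slc25a46, Slc25a51, Slc30a6, Slc30a9, Slc33a1, Slc35c1, Slc38a7, Slc39a11, Slc45a4, Slc46a1, Slc4a1ap, Slc4a2 and Slc4a8. A missing call does not show that levels are equal. At the other end 25 carriers were called in all 4 comparisons. The shares of all genes called in none or in all 4 were not counted, so neither number is set against a background.

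Carriers that bear other names were read from a list of 27 tested genes for scale. In epithelium 7 were higher and 12 lower in the parotid, and 9 and 12 in the submandibular gland. The share of all genes tested that was called there was 64.9% and 67.0%. Slco2a1, the prostaglandin carrier, was epithelial, with means of 55.1 ± 11.9 and 62.2 ± 16.2 CPM against 20.8 ± 5.55 and 21.7 ± 0.935. Mfsd2a, a carrier of lysophospholipids, was at 18.9 ± 1.65 and 11.6 ± 1.05 CPM in the epithelia and 4.04 ± 0.469 and 2.23 ± 0.204 in the mesenchymes, and the mitochondrial serine carrier relative Sfxn3 was highest in parotid mesenchyme at 92.4 ± 16.9 CPM.

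Counts of some carriers may hold reads of another gene. For 11 of the 174 at least 10% of exon bases are covered by another annotated gene, among them Slc39a7 (80.7%) and Slc33a1 (32%), and the strand was not marked.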

How the data were processed

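Bulk RNA-seq libraries were prepared with the SMART-Seq v4 and Nextera XT kits, per the labels' protocols, which do not mark strand. STAR 2.5.2a, edgeR and the build GRCm38 are named in the submitters' processing notes, while for the counter and annotation nothing is given in the sources used here. Raw counts per gene were used as deposited by the authors, without 92 spike-in rows. The levels, a signal scaled by the TMM method, are the authors' deposited table and were recomputed from the counts.

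Differences were tested with edgeR 4.0.16 (quasi-likelihood, robust, TMM scaling, low counts removed by filterByExpr, 18191 genes, all 16 libraries in 1 fit), with Benjamini-Hochberg adjustment over all genes tested. The script was tested on simulated data. All 174 carriers passed the filter. Depth was 16912258 to 27646844 counts per library. Errors marked SE belong to a log2 difference in this fit of all 16 libraries and were derived from its size and F statistic. Errors given with group means are the SD over 4 libraries. Exon lengths and overlaps are from GENCODE M21, and promoter windows from RefSeq.

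The members, classes, gene lists and marker lists were chosen with earlier results of these data known. The rule for full values took the 5 largest called differences without overlap in each direction of the 4 comparisons, the 3 largest interactions in each direction, the most layer-dependent and the most even member of each class of 4 or more, a list of 24 carriers of known role and the genes nearest the floor. Full library values were printed for those that the results turn on, and means or differences for others; the remaining genes named were added after their values were seen. Alternatives were other scalings (DESeq2 1.42.0 size factors, upper quartile), DESeq2, limma-voom (limma 3.58.1), other low-count filters, other floors, the 8 libraries compared alone, a replicate block and each library left out. The filtered count table was not used here, and results of some members are not reported here.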

Additional observations from a re-analysis of the deposited data

Results flagged for a closer look

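In groups of 4 libraries, 10 of 244 group values of the 61 genes chosen for full values had a highest or lowest library set apart from the other 3, by Dixon's ratio. Chance sets apart about 1 in 20 groups. Slc10a3 stood at 18.9 CPM in submandibular epithelium replicate 1 (others 16.5 to 16.8) and at 16 in submandibular mesenchyme replicate 4 (22.5 to 23.6). Slc16a7 was 16.5 CPM in parotid epithelium replicate 1 (9.35 to 10.6), and Slc30a1 was 9.21 in replicate 3 of that group (7.57 to 7.78). Slc38a7 was 32.3 CPM in parotid mesenchyme replicate 4 (10.3 to 13.5), where Slc29a2 was 4.12 (5.37 to 5.61). Slc40a1 was 31.2 CPM in parotid mesenchyme replicate 1 (23.4 to 24). Slc20a1 was 37.9 CPM in submandibular epithelium replicate 3 (46.4 to 47.3), Slc39a13 was 10.2 in replicate 1 (13.1 to 13.4), and Slc9a9 was 9.77 in submandibular mesenchyme replicate 3 (15 to 16).

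The gland difference in epithelium and in mesenchyme differed, by edgeR's interaction test with Benjamini-Hochberg adjustment, for 49 carriers. The largest interactions on the log2 scale were 6.14 for Slc6a14, 3.48 for Slc45a3 and 2.69 for Slc9a9 on the positive side, and -3.36 for Slc41a2, -2.62 for Slc16a12 and -2.40 for Slc35f1 on the negative side. Slc41a2 was not called without submandibular epithelium replicate 4 (-1.99, adjusted p = 0.450).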

How the results depend on the processing

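Of 437 calls of a carrier in a comparison, 335 held under every alternative, 102 were lost under at least 1, 89 of them with a library left out, and none changed direction. Between the epithelia, 61 carriers were called, 31 without parotid epithelium replicate 4 and submandibular epithelium replicate 1, and 39 to 71 with 1 library left out (39 without submandibular epithelium replicate 1 and likewise without replicate 3 of parotid epithelium, 71 without parotid epithelium replicate 1); the cause was not tested. The other counts stayed within 1.5 times: 54 to 72 between the mesenchymes, 121 to 129 between the parotid layers, 121 to 133 between the submandibular layers and 42 to 54 for the interaction with 1 library left out. Upper-quartile scaling turned the split between the mesenchymes from 43 higher and 26 lower to 31 and 40. At a floor of 5 CPM there were 193 carriers and at 20 CPM 143. With the replicate number as a block, 59, 68, 125, 129 and 50 were called in the same order. Same-numbered libraries correlated at -0.117 to 0.218 over genes. The same number gave the best match for 2 of 4 in the submandibular layers and for at most 1 elsewhere. Low correlations under 1 numbering cannot exclude a pairing in another order. Whether the layers came from the same glands is thus not settled. Depth limits the low layers: Slc41a2 stood at no more than 0.567 CPM in epithelium and Slc26a9 at no more than 0.338 in mesenchyme, so the sizes of their layer differences carry wide errors.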
